A study of Mus musculus with 3 samples.

Results

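Mitosis and spindle checkpoint genes were followed as a list of 44 genes in RNA of the embryonic mouse spinal cord. Members were the rows of the gene table whose gene name equalled a listed symbol and whose count was at least 20 in at least 1 library. All 44 symbols matched and met this minimum, of 51826 genes in the table and 18074 that met the same minimum. The smallest member by this measure was Cdc25c, with 133 counts in its highest library.

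RNA was sequenced from C57BL/6 spinal cord at embryonic day 13.5, with 1 library for each of 3 genotypes. The wild-type library (WT) carries no Cre or floxed allele in its labels. The dE3 library comes from Nestin-Cre embryos with floxed exon 3 of Ctnnb1, the β-catenin gene, a deletion labelled as gain of function. The cKO library comes from Nestin-Cre embryos with floxed exons 2 to 6 of the same gene, labelled as loss of function. Nestin-Cre is active in neural progenitors, and the deletion passes to their descendants. Other cells of the dissected tissue may keep an intact gene, and where the deletion occurred was not tested here. How many embryos went into each library is not given in the sources used here. With 1 library per genotype there is no replicate spread and no test, and every comparison is between these libraries.

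Mitosis is driven by cyclin-dependent kinase 1 (CDK1) with A- and B-type cyclins, together with the Aurora and Polo kinases. The spindle checkpoint keeps the anaphase-promoting complex inactive until kinetochores are attached to microtubules, and its release leads to destruction of securin and cyclin B and to separation of the chromatids. In the embryonic spinal cord the dividing cells are mainly progenitors near the central canal, while neurons have left the cell cycle. Many genes of mitosis are transcribed in G2 and M phase, through the MuvB complex with B-Myb and FoxM1 at the cell cycle homology region (CHR) of their promoters, and through NF-Y at CCAAT boxes.

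The promoters show what many members share in sequence. RefSeq promoter windows of GRCm38.p6, from 250 bases before to 50 after the transcript start, were found for 37 of the 44 members and gave 39 windows, since Ect2 and Prc1 each had 2 overlapping windows. The CHR was searched as TTTGAA or TTCGAA, the NF-Y box as CCAAT and the E2F site as TTTGGCGC or TTTCGCGC, each on both strands. The following stretches are the 160 bases upstream of the start, written 5′ to 3′ on the strand of the gene, with capitals at each match. ATTGG is CCAAT read on the opposite strand, and TTCAAA is TTTGAA read on the opposite strand. Ccnb2, Cdk1, Cdc20 and Top2a are shown for the pairing of CHR and NF-Y boxes, Bub1 and Plk1 as members with at least a 2-fold difference, Birc5 as the largest difference without a match, and Racgap1 as the member that differed least.
Ccnb2: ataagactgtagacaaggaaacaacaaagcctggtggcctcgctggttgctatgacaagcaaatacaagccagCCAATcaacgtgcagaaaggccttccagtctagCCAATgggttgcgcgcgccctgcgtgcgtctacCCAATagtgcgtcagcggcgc
Cdk1: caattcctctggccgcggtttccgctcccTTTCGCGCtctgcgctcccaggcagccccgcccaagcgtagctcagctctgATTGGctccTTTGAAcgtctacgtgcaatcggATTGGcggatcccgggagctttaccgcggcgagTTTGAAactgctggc
Cdc20: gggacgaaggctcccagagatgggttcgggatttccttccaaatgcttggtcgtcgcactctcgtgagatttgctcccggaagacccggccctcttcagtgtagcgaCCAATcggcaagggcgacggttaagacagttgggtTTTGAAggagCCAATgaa
Top2a: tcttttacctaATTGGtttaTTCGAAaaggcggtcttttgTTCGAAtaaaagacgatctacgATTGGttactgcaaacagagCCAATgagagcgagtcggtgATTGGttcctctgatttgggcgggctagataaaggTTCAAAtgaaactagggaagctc
Bub1: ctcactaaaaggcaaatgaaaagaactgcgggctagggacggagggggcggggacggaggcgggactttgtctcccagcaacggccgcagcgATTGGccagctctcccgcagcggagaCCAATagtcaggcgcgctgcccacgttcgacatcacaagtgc
Plk1: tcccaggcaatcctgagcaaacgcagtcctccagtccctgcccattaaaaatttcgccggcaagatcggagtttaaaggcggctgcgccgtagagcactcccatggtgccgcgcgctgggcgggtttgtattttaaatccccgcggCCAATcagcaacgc
Birc5: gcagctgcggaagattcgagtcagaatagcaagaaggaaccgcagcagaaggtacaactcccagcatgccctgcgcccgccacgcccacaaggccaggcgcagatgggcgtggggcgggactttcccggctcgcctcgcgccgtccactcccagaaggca
Racgap1: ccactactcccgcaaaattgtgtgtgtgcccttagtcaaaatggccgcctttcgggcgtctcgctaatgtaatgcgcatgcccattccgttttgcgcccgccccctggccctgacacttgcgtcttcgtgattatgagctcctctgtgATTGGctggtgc

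These stretches lie at chr9:70421555-70421714 (minus strand, Ccnb2), chr10:69352913-69353072 (minus strand, Cdk1), chr4:118437344-118437503 (minus strand, Cdc20), chr11:99024190-99024349 (minus strand, Top2a), chr2:127831860-127832019 (minus strand, Bub1), chr7:122159275-122159434 (plus strand, Plk1), chr11:117849077-117849236 (plus strand, Birc5) and chr15:99651657-99651816 (minus strand, Racgap1) of GRCm38.p6. In Ccnb2 the 3 NF-Y boxes fell 87, 54 and 21 bases before the start, and a CHR lay 5 bases past it, outside the printed stretch. The CHR of Bub1, Plk1 and Racgap1 also lay past the start. A CHR was present in 28 of 39 windows (71.8%), against 13.7% of the 15481 windows of measured genes and 19.2% of all 32851 windows. At least 1 NF-Y box was present in 30 of 39 windows (76.9%), against 37.3% of windows of measured genes. Of 98 windows of other mitosis genes, listed further below, 38.8% held a CHR and 55.1% an NF-Y box. Of 19 windows of S phase genes, 15.8% held a CHR and 78.9% an NF-Y box, so the NF-Y share was not particular to the members. Both a CHR and at least 2 NF-Y boxes occurred in 19 of 39 windows (48.7%), against 2.15% of windows of measured genes. That share was 14.3% for other mitosis genes and 10.5% for S phase genes. Neighbouring NF-Y boxes 29 to 36 bases apart were found in 10 of the 22 windows with at least 2 boxes (45.5%), against 20.7% of such windows of measured genes. The E2F letters occurred in 1 window (2.56%), that of Cdk1, against 1.36%. No match to any motif was found for Birc5, Knstrn, Mad2l1, Mybl2, Nuf2, Nusap1 and Pttg1, which says only that these letters are not in these windows.

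**Figure D1:**
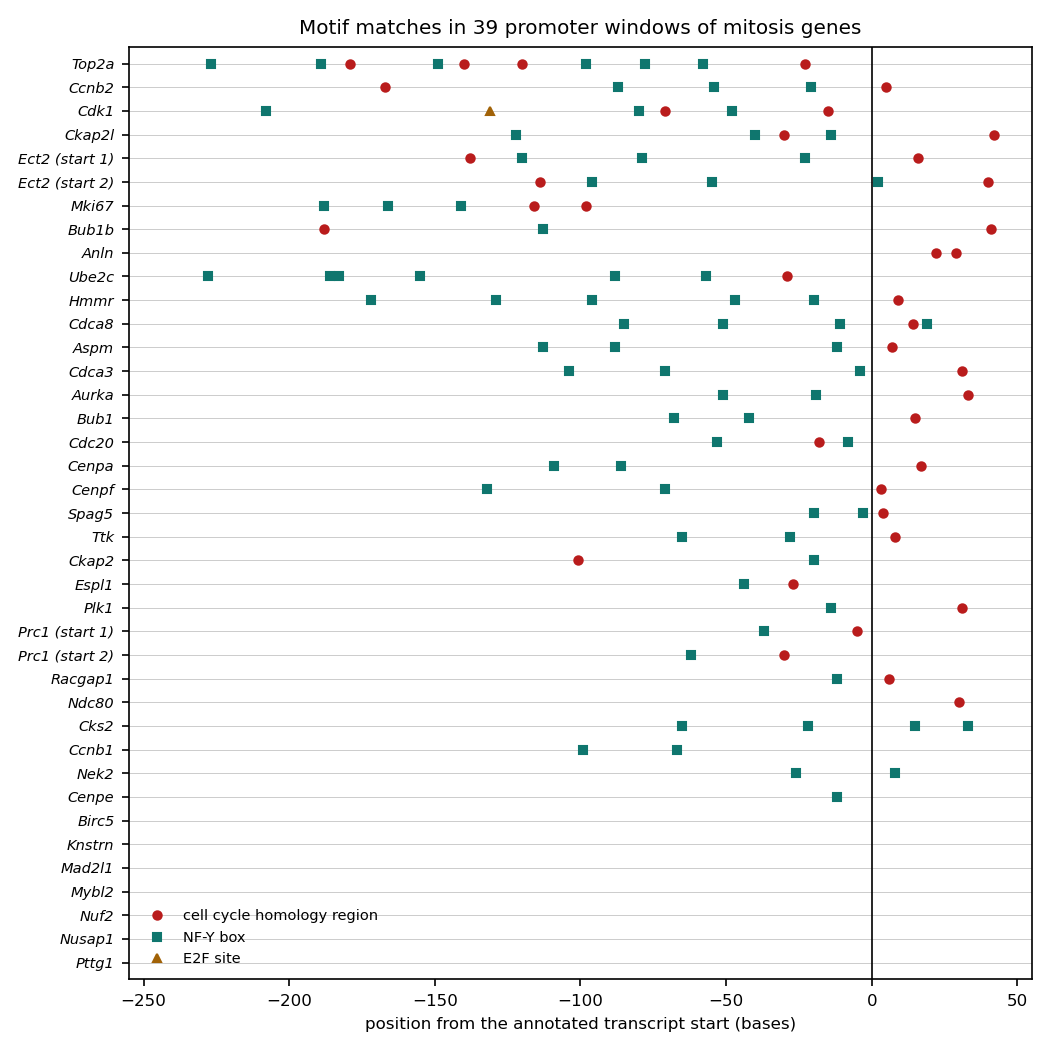
Positions of motif matches (horizontal axis, bases from the annotated transcript start) in 39 promoter windows of mitosis genes (vertical axis, 1 line per window), with circles for the CHR, squares for the NF-Y box and a triangle for the E2F site. Of 39 CHR matches, 28 lie within 50 bases of the start, and of 75 NF-Y boxes, 50 lie in the 100 bases before it.

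The libraries held 32167470 estimated counts for WT, 34790053 for dE3 and 33048837 for cKO. CPM, here counts scaled to library size by TMM, serves to compare 1 gene between libraries, and the authors' TPM, which corrects for length, to compare genes. A ratio of CPM is followed in brackets by its 95% interval, which covers counting error only. Genes were called at least 2-fold apart where the ratio reached 2 in either direction and the interval excluded 1. Ctnnb1, on chromosome 9, stood at 544 CPM in WT, 461 CPM in dE3 and 422 CPM in cKO. Its ratio to WT was 0.847 (0.829 to 0.866) in dE3 and 0.776 (0.758 to 0.793) in cKO, and gene totals keep the reads of exons outside the deletion and of cells without Cre.

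Nearly the whole list stood higher in dE3 than in the wild type, while most members in cKO stayed near it. For dE3 against WT, 7 of 44 members (Birc5, Mad2l1, Mybl2, Bub1, Plk1, Cdc20 and Bub1b) were called higher by at least 2-fold, against 6.52% of all 18074 measured genes, and 0 were called lower, against 3.78%. At 1.5-fold, 33 were higher, against 11.4% of all genes, and 0 lower, against 8.01%. Counting any size whose interval excluded 1, 42 were higher, against 29.1%, and 1, Racgap1, was lower, against 28.8%. The median log2 ratio was 0.76 (1.69-fold), beside 0.0042 over all measured genes. In cKO against WT, 0 members were called higher by at least 2-fold, against 3.48% of all genes, and 0 lower, against 3.41%. The median log2 ratio there was 0.07 (1.05-fold), beside 0.0019 over all genes. In bulk tissue, more cycling cells and more RNA of these genes per cell cannot be told apart.

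**Figure D2:**
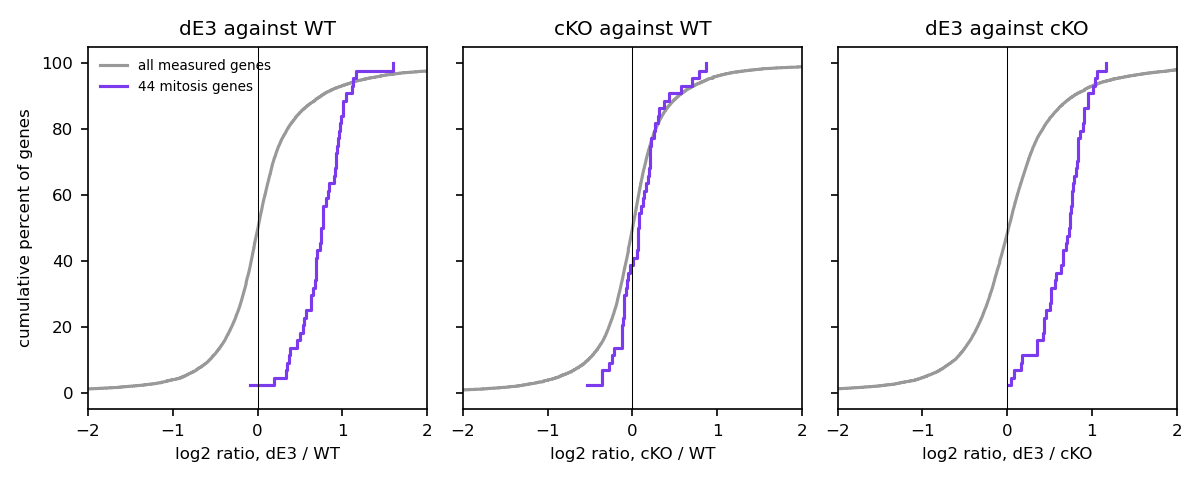
Cumulative percent of genes (vertical axis) by log2 ratio of scaled counts (horizontal axis) in 3 panels, 1 for each pair of libraries, with grey lines for all 18074 measured genes and purple lines for the 44 mitosis genes. The purple line lies to the right of the grey one over most of its length in both panels with dE3, where the members' medians are 0.76 and 0.73, and near it in the panel of cKO against WT, where the median is 0.07.

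By CPM, dE3 was the highest library for 43 of 44 members, with WT lowest for 27 of them and cKO lowest for 16. The exception was Racgap1, highest in WT and lowest in cKO. The share of all measured genes in each of these orders was not computed. Summed over the list, CPM was 794 for WT, 1260 for dE3 and 821 for cKO, and the members took 0.0788%, 0.127% and 0.0820% of all counts. Per length, the median member stood at a TPM of 10.8 for WT, 21.4 for dE3 and 11.6 for cKO. Members above the median TPM of all measured genes numbered 12, 24 and 14, in the same order. The lowest member by TPM was Cdc25c in each library and the highest was Racgap1.

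**Figure D3:**
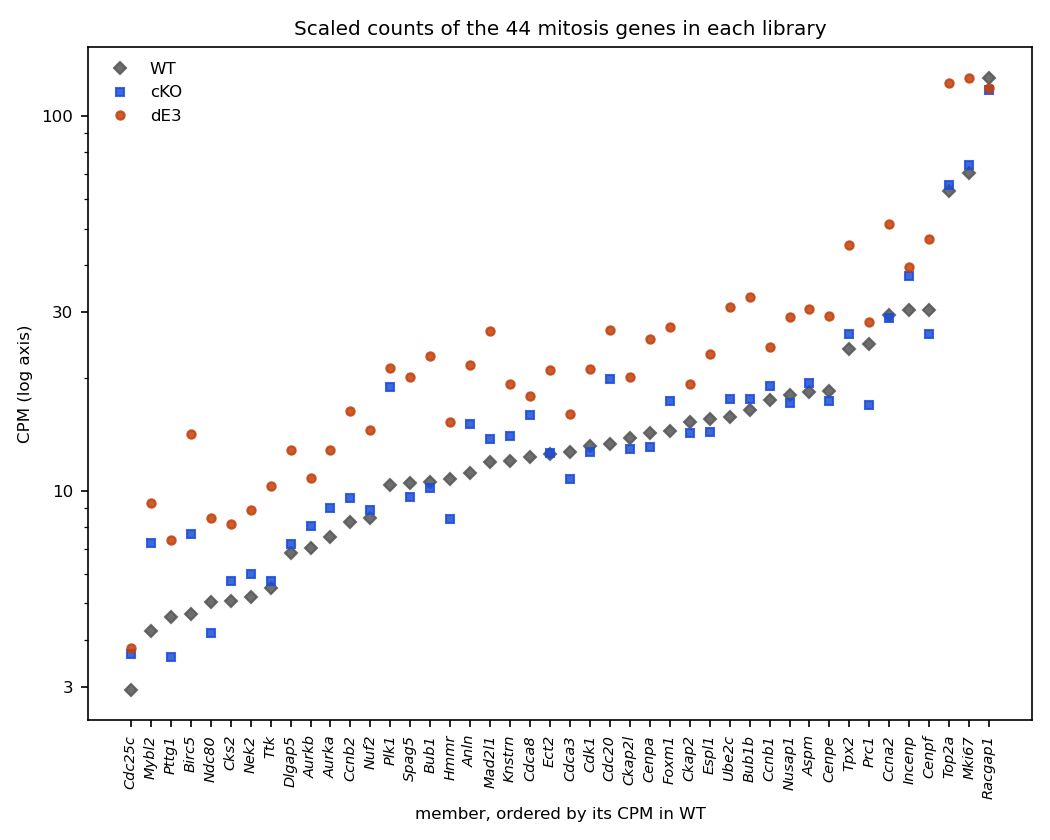
CPM (vertical axis, logarithmic) of each of the 44 mitosis genes (horizontal axis, ordered by WT) in the WT (diamonds), cKO (squares) and dE3 (circles) libraries, 1 value each. The dE3 circle is the highest symbol for every gene except Racgap1, whose 127 CPM for WT exceeds 119 for dE3 and 117 for cKO.

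CDK1 and its regulators were higher in dE3 without reaching 2-fold. Of 6 members, 5 were higher in dE3 than in WT beyond counting error, against 29.1% of all genes, at a median log2 ratio of 0.68. None differed between cKO and WT beyond counting error, against 27.2% of all genes higher and 26.7% lower. Ccnb2, the gene of cyclin B2 and the nearest below the threshold, stood at 8.26 CPM in WT, 16.3 CPM in dE3 and 9.57 CPM in cKO, which is 1.97-fold (1.70 to 2.29) for dE3 against WT. Cdk1, the kinase itself, was 1.60-fold higher (1.42 to 1.81). Ccna2, the gene of cyclin A2, was 1.75-fold higher (1.61 to 1.89). Cdc25c encodes a phosphatase that activates CDK1, and it stood at 2.94 CPM in WT, 3.79 CPM in dE3 and 3.66 CPM in cKO. Its interval for dE3 against WT, 1.29-fold (0.983 to 1.70), included 1, as did that for cKO against WT.

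Both transcription factors of the list were higher in both mutant libraries than in WT. Mybl2, which encodes B-Myb (ENSMUSG00000017861, chromosome 2), stood at 4.22 CPM in WT, 9.24 CPM in dE3 and 7.27 CPM in cKO. Its ratio was 2.19-fold (1.78 to 2.69) for dE3 and 1.72-fold (1.39 to 2.14) for cKO, so by CPM the mutant libraries lay nearer to each other than to WT. By the authors' TPM the same gene stood at 5.15, 7.44 and 5.64 for WT, dE3 and cKO, which is under 2-fold. On that scale cKO lay nearer to WT than to dE3. Without Mybl2-201, its main transcript, its log2 ratio for dE3 against WT was -0.69, on the 19 counts left in dE3 and 28 in WT. Foxm1, which encodes a forkhead activator of G2 and M phase genes, was 1.90-fold higher in dE3 (1.70 to 2.12) and 1.20-fold higher in cKO (1.06 to 1.36).

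Of the 3 genes in the mitotic kinase group, Plk1 had the largest ratio to WT in both mutant libraries. Plk1 encodes Polo-like kinase 1 (ENSMUSG00000030867, chromosome 7) and stood at 10.4 CPM in WT, 21.3 CPM in dE3 and 19.0 CPM in cKO. The ratio to WT was 2.05-fold (1.80 to 2.35) in dE3 and 1.83-fold (1.60 to 2.10) in cKO, the highest cKO ratio of the list by CPM. By the authors' TPM the highest was that of Birc5, at 8.87 in WT and 15.7 in cKO, beside 13.2 and 21.9 for Plk1. Without the transcript Plk1-203, Plk1 kept 564 counts in dE3 and 616 in cKO, and dE3 was under 2-fold above WT. Aurka, the Aurora A kinase of the spindle poles, was 1.71-fold higher in dE3 and 1.20-fold higher in cKO (1.01 to 1.43). Nek2, a centrosomal kinase, was 1.71-fold higher in dE3, with an interval for cKO that included 1.

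The chromosomal passenger complex, in which Aurora B kinase is held at the centromere by Incenp, borealin and survivin, had the member with the largest ratio. Birc5, the survivin gene (ENSMUSG00000017716, chromosome 11), stood at 4.69 CPM in WT, 14.2 CPM in dE3 and 7.66 CPM in cKO. It was 3.03-fold higher in dE3 (2.52 to 3.66) and 1.63-fold higher in cKO (1.33 to 2.01), in the order WT, cKO, dE3 from low to high. Incenp, the scaffold, stood at 30.4 CPM in WT, 39.5 CPM in dE3 and 37.4 CPM in cKO, so that the 2 mutant libraries did not differ beyond counting error. Cdca8, the borealin gene, stood at 12.3 CPM in WT, 17.9 CPM in dE3 and 15.9 CPM in cKO. Aurkb was 1.54-fold higher in dE3 (1.30 to 1.83).

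In the spindle checkpoint group, 3 of 4 members were called higher for dE3 against WT, against 6.52% of all measured genes. The group's median log2 ratio, 1.06, was the highest of the 10 role groups and rests on 4 genes. It was close to the 1.03 of the 2 transcription factors. Mad2l1, the gene of Mad2, the inhibitor of Cdc20 (ENSMUSG00000029910, chromosome 6), stood at 11.9 CPM in WT, 26.6 CPM in dE3 and 13.7 CPM in cKO, or 2.23-fold higher in dE3 (1.98 to 2.52). Bub1, a kinetochore kinase (ENSMUSG00000027379, chromosome 2), stood at 10.6 CPM in WT, 22.9 CPM in dE3 and 10.2 CPM in cKO. For Bub1, dE3 stood 2.17-fold above WT (1.91 to 2.47), while the ratio of cKO to WT, 0.962 (0.825 to 1.12), had an interval that included 1. Bub1b, the gene of BubR1 (ENSMUSG00000040084, chromosome 2), stood at 16.4 CPM in WT, 33.0 CPM in dE3 and 17.6 CPM in cKO, a ratio of 2.01-fold (1.81 to 2.23) that is close to the threshold. Ttk, the Mps1 kinase, was 1.87-fold higher in dE3 (1.56 to 2.25).

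Among the genes of ubiquitin-dependent entry and exit, Cdc20 was called and was intermediate in cKO. Cdc20, the coactivator of the anaphase-promoting complex (ENSMUSG00000006398, chromosome 4), stood at 13.3 CPM in WT, 26.9 CPM in dE3 and 19.8 CPM in cKO, 2.02-fold higher in dE3 (1.80 to 2.27) and 1.49-fold higher in cKO (1.31 to 1.68). Ube2c, its ubiquitin-conjugating enzyme, was 1.96-fold higher in dE3 (1.76 to 2.18). It overlaps Tnnc2, a muscle gene, on the opposite strand over 22.8% of its exonic bases, and Tnnc2 had a log2 ratio of 4.69 for dE3 and 2.83 for cKO against WT. The part of Tnnc2 reads in the Ube2c value was not tested. Pttg1, the securin gene, stood at 4.60 CPM in WT, 7.39 CPM in dE3 and 3.60 CPM in cKO, with cKO the lowest. Cdca3, a trigger of mitotic entry, stood at 12.7 CPM in WT, 16.1 CPM in dE3 and 10.7 CPM in cKO. Espl1, the separase gene, was 1.48-fold higher in dE3 (1.33 to 1.66).

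All 7 centromere and kinetochore members stood above WT in dE3 beyond counting error, against 29.1% of all genes. None was called higher at 2-fold, against 6.52%, and the median log2 ratio was 0.75. Spag5, the astrin gene, stood at 10.5 CPM in WT, 20.1 CPM in dE3 and 9.63 CPM in cKO. Ndc80, of the microtubule-binding outer kinetochore, stood at 5.04 CPM in WT, 8.45 CPM in dE3 and 4.18 CPM in cKO. Cenpf was 1.54-fold higher in dE3 (1.43 to 1.67) and 1.16-fold lower in cKO (1.06 to 1.27). Cenpa, the centromeric histone H3 variant, was 1.78-fold higher in dE3.

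Spindle assembly genes, 7 in number, were also all above WT in dE3 beyond counting error, against 29.1% of all genes, at a median log2 ratio of 0.70. Tpx2, which activates Aurora A on the spindle, was 1.90-fold higher (1.74 to 2.07). Without the transcript Tpx2-202, 747 counts were left in dE3 and 713 in WT, so this ratio rested on that transcript. Ckap2, a microtubule-associated protein gene, stood at 15.2 CPM in WT, 19.3 CPM in dE3 and 14.2 CPM in cKO. Hmmr stood at 10.8 CPM in WT, 15.3 CPM in dE3 and 8.39 CPM in cKO, and was 1.28-fold lower in cKO than in WT (1.09 to 1.51).

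The 4 cytokinesis genes differed among themselves in both mutant libraries. Prc1, which bundles microtubules of the central spindle, stood at 24.6 CPM in WT, 28.3 CPM in dE3 and 17.0 CPM in cKO, 1.15-fold higher in dE3 (1.04 to 1.26) and 1.45-fold lower in cKO (1.30 to 1.62), the lowest cKO ratio of the list. Racgap1, of the centralspindlin complex (ENSMUSG00000023015, chromosome 15), was 1.06-fold lower in dE3 (1.02 to 1.11) and 1.08-fold lower in cKO (1.03 to 1.13). Its TPM of 118 for WT was far above the next member, Top2a at 44.6, and without Racgap1 the summed CPM of the list was 667 for WT, 1141 for dE3 and 703 for cKO. Without Racgap1-201, its main transcript, the log2 ratio for dE3 against WT was 1.16, on the 1391 counts left in dE3 and 568 in WT. Anln, which encodes anillin of the contractile ring, was 1.94-fold higher in dE3 (1.70 to 2.20) and 1.35-fold higher in cKO (1.18 to 1.55). Ect2, the exchange factor that activates RhoA, was 1.68-fold higher in dE3 and 1.01-fold in cKO (0.877 to 1.16). Of the chromosome structure genes, Top2a, the topoisomerase of G2 and M phase, stood 1.94-fold higher in dE3 (1.84 to 2.05) and Mki67, the gene of the Ki-67 antigen, 1.79-fold higher (1.70 to 1.89).

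**Figure D4:**
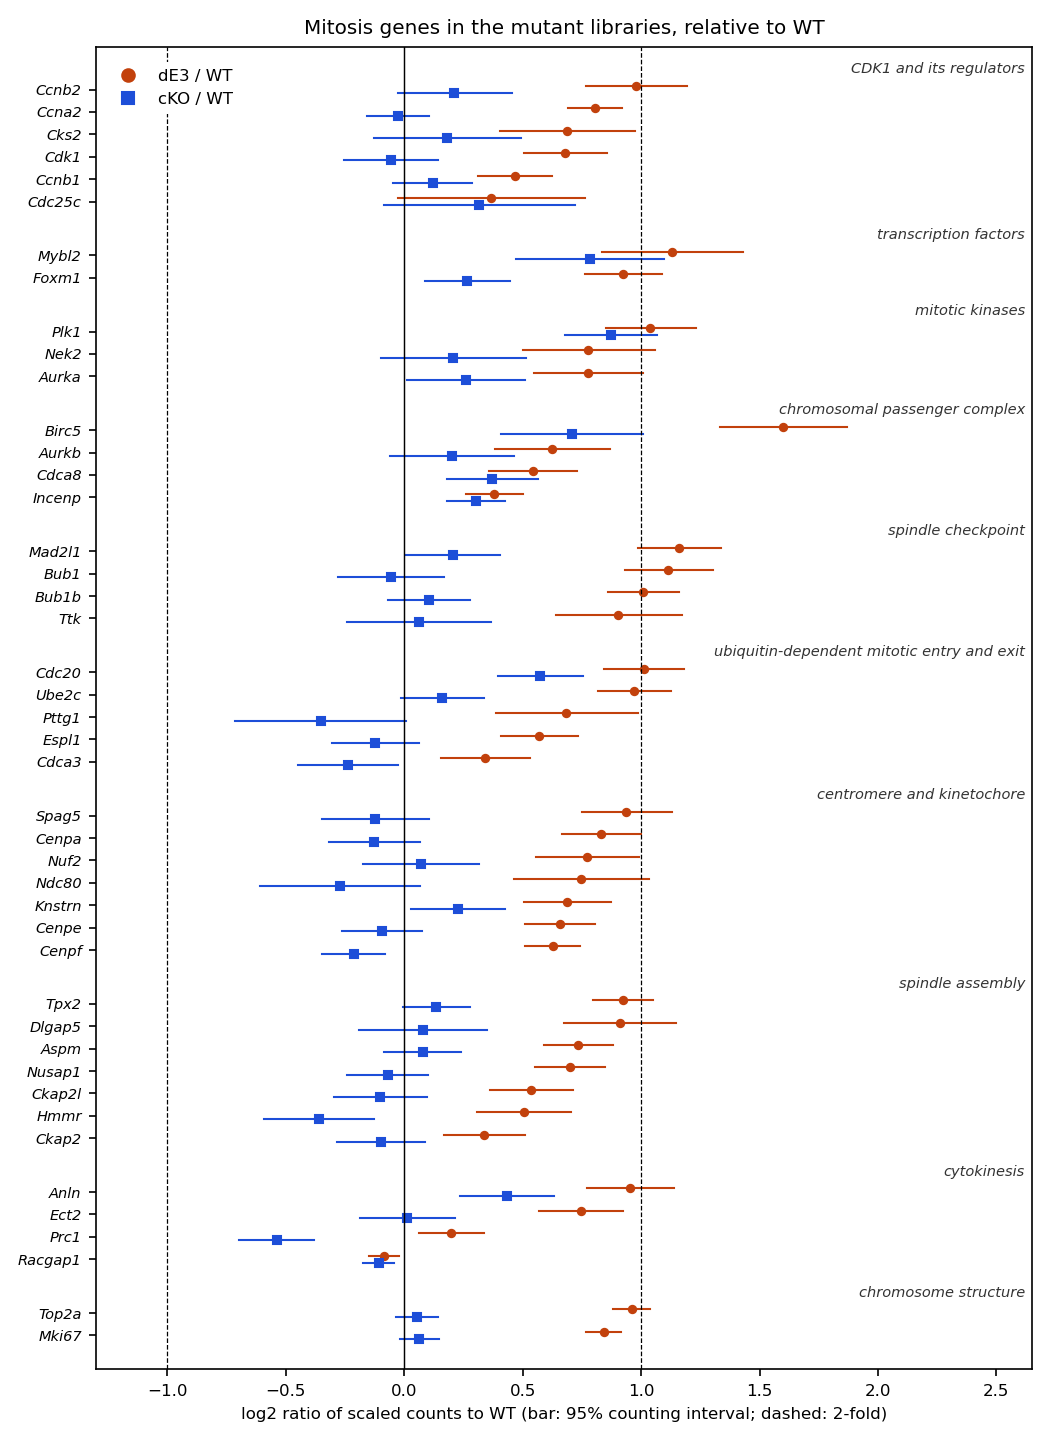
Log2 ratio to WT (horizontal axis) of each of the 44 mitosis genes (vertical axis, by role) in dE3 (circles) and cKO (squares), with bars for the 95% counting interval and dashed lines at 2-fold. The dE3 values run from -0.09 for Racgap1 to 1.60 for Birc5, and the cKO values from -0.54 for Prc1 to 0.87 for Plk1.

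In cKO most of the list, 28 of 44 members, had an interval against WT that included 1, as did 8342 of all 18074 genes. Of 44 members, 11 were higher than WT beyond counting error, against 27.2% of all genes, and 5 were lower, against 26.7%, so that neither share of members exceeded that of all genes. The 11 were Foxm1, Mybl2, Aurka, Plk1, Birc5, Incenp, Cdca8, Mad2l1, Cdc20, Knstrn and Anln. The 5 lower were Cdca3, Cenpf, Hmmr, Prc1 and Racgap1. At 1.5-fold, 3 were higher (Plk1, Mybl2 and Birc5), against 7.20% of all genes, and 0 lower, against 6.67%. Role groups ran from a median log2 ratio of 0.52 for the transcription factors and 0.34 for the passenger complex to -0.12 for both the centromere and the ubiquitin group.

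Set directly against cKO, dE3 was higher for all 44 members. Of these, 4 were called higher by at least 2-fold, a share of 9.09% against 6.62% of all measured genes, and 0 lower, against 4.38%. At 1.5-fold, 28 were higher, against 12.5%, and 0 lower, against 9.53%. Beyond counting error at any size, 41 were higher, against 33.1%, and 0 lower, against 31.0%. The median log2 ratio was 0.73 (1.66-fold), beside 0.017 over all genes. The 4 called were Bub1 at 2.25-fold (1.98 to 2.57), Spag5 at 2.09-fold (1.82 to 2.39), Pttg1 at 2.05-fold (1.64 to 2.57) and Ndc80 at 2.02-fold (1.65 to 2.49). The lowest ratios were those of Racgap1, 1.01-fold (0.971 to 1.06), Cdc25c, 1.04-fold, Incenp, 1.06-fold (0.977 to 1.14), and Plk1, 1.12-fold (1.01 to 1.25), which was -0.21 on the log2 scale without Plk1-203. By the authors' TPM Racgap1 was -0.0152 on the log2 scale, and Plk1 stood further apart, at 36.7 in dE3 and 21.9 in cKO. Without Pttg1-203 the log2 ratio of Pttg1 was 0.75, no longer called, on the 197 counts left in dE3 and 110 in cKO. This comparison shares the dE3 library with dE3 against WT, and cKO with cKO against WT.

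Genes that work with the members differed less. Of 101 further mitosis genes in 6 lists, 99 were measured, and for dE3 against WT 5 were called higher (5.05%, against 6.52% of all genes) and 0 lower (against 3.78%), at a median log2 ratio of 0.20. Beyond counting error at any size, 65 were higher (65.7%, against 29.1%) and 10 lower (10.1%, against 28.8%). The median was 0.52 over 12 mitotic entry regulators, 0.40 over 29 further kinetochore and checkpoint subunits, 0.27 over 12 centrosome genes, 0.20 over 17 condensin and cohesin genes, 0.19 over 12 genes of the DREAM and MuvB complexes and 0.02 over 17 genes of the anaphase-promoting complex. Kntc1, of the complex that brings dynein to kinetochores, stood at 7.35 CPM in WT, 17.1 CPM in dE3 and 7.57 CPM in cKO, or 2.33-fold higher in dE3. Tfdp2, an E2F partner, stood at 23.6 CPM in WT, 71.8 CPM in dE3 and 43.9 CPM in cKO. The other 3 called were Cenpk at 2.20-fold (1.57 to 3.11), Gtse1 at 2.24-fold (1.86 to 2.71) and Ncapg2 at 2.16-fold (1.89 to 2.46). In cKO against WT none of the 99 was called, against 3.48% of all genes higher and 3.41% lower, and the median was -0.06. Beyond counting error at any size, 19 were higher in cKO (19.2%, against 27.2%) and 37 lower (37.4%, against 26.7%). In dE3 against cKO 6 were called higher (6.06%, against 6.62% of all genes), among them Knl1, Kntc1, Cenpk, Cenph and Ncapg.

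Replication genes also stood above WT in dE3, and so did genes linked to leaving the cycle. For 19 of 20 S phase genes dE3 exceeded WT beyond counting error (against 29.1% of all genes), at a median log2 ratio of 0.60, and 4 were called (against 6.52%), among them Mcm3, of the replicative helicase, at 2.41-fold (2.17 to 2.68). In cKO, 13 of the 20 were higher (65.0%, against 27.2%) and 3 lower (15.0%, against 26.7%), at a median of 0.16. Of 9 cell cycle exit genes, 9 were higher in dE3 beyond counting error, against 29.1% of all genes, with Cdkn1a, the p21 inhibitor, at 17.1 CPM in WT, 52.9 CPM in dE3 and 18.6 CPM in cKO and Btg2 at 2.18-fold (2.02 to 2.34). Neural progenitor markers were mixed. Of 14, 9 were higher in dE3 beyond counting error (64.3%, against 29.1% of all genes) and 4 lower (28.6%, against 28.8%), at a median log2 ratio of 0.13. Of the 14, 1 was called higher (Hes5), or 7.14% against 6.52% of all genes. Called lower were 3 (Fabp7, Sox1 and Sox3), or 21.4% against 3.78%. The list had a sum of 1922 CPM in WT, 1928 CPM in dE3 and 1677 CPM in cKO. Pan-neuronal genes had a median of -0.37 in dE3 and -0.01 in cKO.

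**Figure D5:**
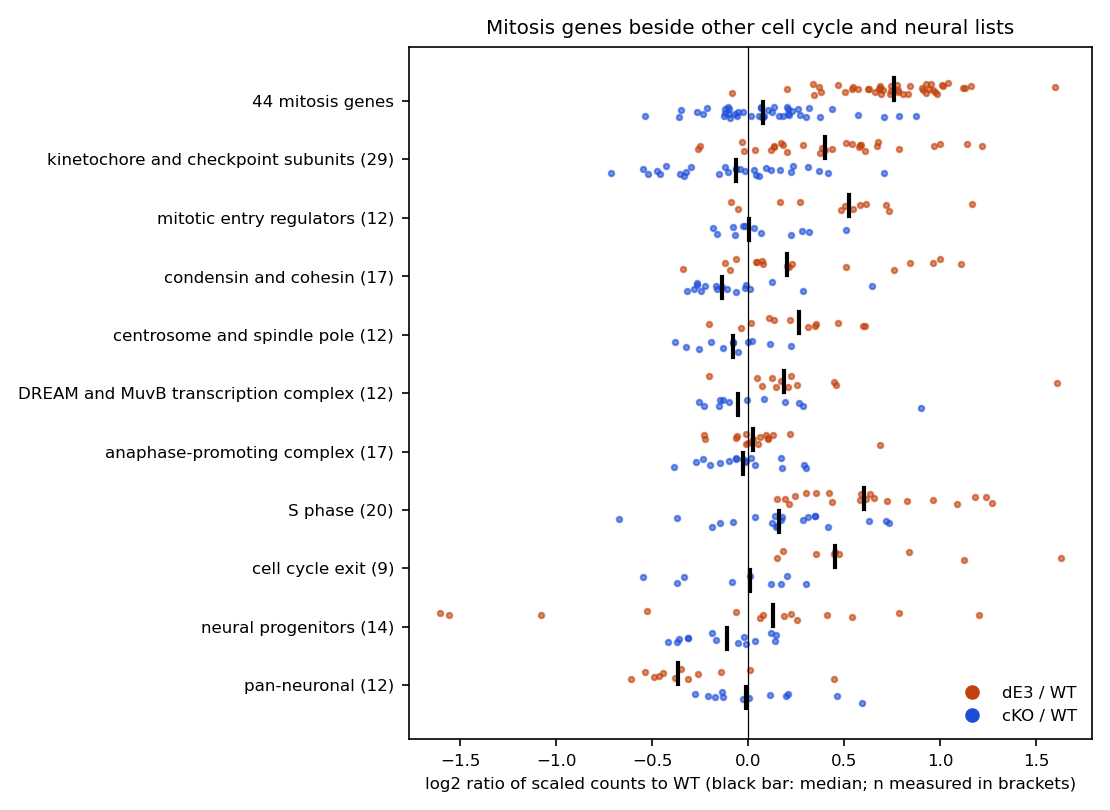
Log2 ratio to WT (horizontal axis) of each gene in the mitosis list and 10 other lists (vertical axis, number measured in brackets), orange for dE3 and blue for cKO, with black bars at the medians. The dE3 median is 0.76 for the mitosis list, 0.60 for S phase genes and -0.37 for pan-neuronal genes.

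Markers of tissues around the cord also differed between the libraries. The 14 skeletal muscle markers summed to 16.6 CPM in WT, 208 CPM in dE3 and 54.4 CPM in cKO, and 13 of 13 measured were called higher in dE3 and 10 of 13 in cKO. Beside these and the called counts that follow, 6.52% of all measured genes were called higher in dE3 and 3.48% in cKO. Ckm, Myf5 and Tnni1 were at 0 in WT, and Ckm was at 0 in cKO. The 11 cartilage markers summed to 176, 1016 and 470 CPM in WT, dE3 and cKO, with 11 of 11 called higher in dE3 and 9 of 11 in cKO. The 12 markers of mesenchyme and meninges summed to 715, 1341 and 1586 CPM, with 4 of 12 called higher in each mutant library. The 9 epidermal markers summed to 9.20, 23.4 and 11.3 CPM, with 6 of 8 measured called higher in dE3 and 2 of 8 in cKO. Krt8 was at 0 in WT. In the same order, erythroid genes summed to 1346, 1287 and 1543 CPM, endothelial genes to 226, 253 and 329 CPM, microglial genes to 89.7, 90.3 and 120 CPM and dorsal root ganglion genes to 466, 391 and 694 CPM, each highest in cKO. Muscle and cartilage sums followed the order WT, cKO, dE3. So did 27 of the 44 members, a share not computed over all genes, but not the 16 with dE3 highest and cKO lowest. Dividing cells occur in these tissues as well, and their part in the members' ratios was not tested.

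Transcript counts were examined because gene totals are sums over transcript models. Protein-coding transcripts held 93.0%, 93.2% and 93.7% of the members' counts in WT, dE3 and cKO. For Birc5 both main coding models were higher in dE3, Birc5-201 at 94, 352 and 178 counts and Birc5-202 at 56, 146 and 75 counts in WT, dE3 and cKO. For Plk1 the coding model Plk1-201 held 307, 558 and 616 counts, with cKO the highest, and Plk1-203, a model annotated as subject to nonsense-mediated decay, held 18, 182 and 10. Plk1-201 alone was under 2-fold higher in dE3 than in WT, so the call of Plk1 also rested on Plk1-203. For Racgap1 the split differed in dE3, where Racgap1-201 held 3475, 2784 and 3436 counts and Racgap1-213 held 63, 891 and 54. For Tpx2 the split also differed, with Tpx2-201 at 564, 401 and 290 counts and Tpx2-202 at 51, 842 and 402. Assignment of reads among overlapping models is an estimate, so these splits are less certain than gene totals.

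Some members share sequence with other genes, which can move reads between them. Of 50-base words in the transcripts, 29.7% of Cks2 and 23.4% of Ccnb1 also occur in another gene, and Mybl2 shares 19.3%, Cdc20 10.6% and Plk1 10.4%. The values of these genes are the less certain for it, while Birc5 shares 2.09%. By CHR status, the median log2 ratio for dE3 against WT was 0.76 for the 26 members with a CHR match and 0.70 for the 11 without. Called higher at 2-fold were 4 of the 26 and 3 of the 11, against 6.52% of all measured genes. In cKO the medians were -0.02 and 0.18.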

How the data were processed

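Spinal cord RNA of WT, dE3 and cKO embryos was sequenced from 1 library each, made with a VAHTS mRNA-seq V2 kit from 1 µg of total RNA, as the labels' protocols state. GRCm38.p6, Bowtie2 2.3.2 and CASAVA are listed, with no roles, in the submitters' processing notes, and the counting tool is not given in the sources used here. The authors deposited estimated counts per gene and transcript, which are whole numbers, and TPM and FPKM values. FPKM deposited by the authors was not used here. Gene counts equal the sums of their transcript counts.

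Counts were scaled with TMM (edgeR 4.0.16, R 4.3.3) on the 18074 genes with at least 20 counts in at least 1 library, keeping full library sizes of 32167470 to 34790053. The factors were 0.993, 1.01 and 0.999 for WT, dE3 and cKO. The 95% interval of a ratio is the exact conditional binomial (Clopper-Pearson) interval, and covers counting error only. No p-value is given, since each genotype has 1 library. The ratio and call steps were tested on simulated counts that varied by counting error only, as the interval assumes. That checks the calculation and says nothing about spread between embryos or errors of the estimated counts. Library names carry lane tags that differ between cKO and the other libraries, so lane and genotype cannot be told apart for cKO.

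The members and lists were chosen with earlier results of these data known. Values in every library are given for members called in any comparison and for the 4 highest and 4 lowest ratios of each comparison. Further examples from each role group were chosen after their values were seen. Of other lists, up to 4 called members are named in a comparison. Of 286 listed symbols, 282 were in the table. Motifs were searched in RefSeq promoter windows of GRCm38.p6, and shared words of 50 bases in GENCODE transcripts. Alternatives were DESeq2 size factors (DESeq2 1.42.0), total counts, the authors' TPM, no minimum count, a minimum of 100, a 1.5-fold threshold, leaving out each member's most different transcript and, chosen after seeing the data, leaving out members that share at least 20% of their words. A planned search of protein sequences was not run, and proteins are not analysed here.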

Additional observations from a re-analysis of the deposited data

How the results depend on the processing

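No paired analysis was possible because each genotype has 1 library, and for the same reason no library could be left out. DESeq2 size factors, total counts, no minimum count and a minimum of 100 changed no call of a member in any of the 3 comparisons. Over all alternatives, the median log2 ratio stayed between 0.64 and 0.81 for dE3 against WT, between -0.02 and 0.14 for cKO against WT, negative only without each member's most different transcript, and between 0.63 and 0.75 for dE3 against cKO. With a 1.5-fold threshold, 33 members were higher in dE3 and 3 in cKO than in WT, and 28 in dE3 than in cKO. By the authors' TPM, 7 members were higher in dE3 than in cKO in place of 4, and Mybl2 in dE3 against WT had a log2 ratio of 0.53. Calls by TPM use no interval, and the share over all genes was not computed for them. Leaving out each member's most different transcript took over 50% of the gene's counts from 24 to 29 of the 37 members with several transcripts, depending on the comparison. Lost calls such as those of Bub1b and Cdc20, with 20 and 13 counts left in dE3, therefore say nothing about the gene totals. Under this setting, 4 members were called higher and 3 lower in cKO against WT, and 9 higher and 2 lower in dE3 against cKO. The share over all genes was not computed under it. These calls also depend on how counts were split among transcripts. Aurka without Aurka-203, for example, kept 1 count in cKO and 169 in WT. Mybl2 reversed to -0.69 for dE3 against WT, on 19 counts in dE3 and 28 in WT, and Mki67 had no counts left in that comparison. Members with few counts, such as Cdc25c, have the widest intervals.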
